A study of Homo sapiens with 6 samples.

Results

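The genes described here are 32 genes of glycolysis and of the response to low oxygen, taken by symbol from a table of 19571 genes. They were measured by RNA-seq in LNCaP, a prostate cancer cell line that responds to androgen. Of 6 libraries, 3 came from cells that stably overexpress Flag-tagged wild-type KDM4B, a histone H3 lysine demethylase, and the other 3 from cells carrying the control plasmid plenti6, called vector here. Both groups were kept for 3 days in RPMI with 10% CFBS, so the medium is common to all libraries, and the question of the series is alternative splicing under KDM4B. The labels give the overexpressing libraries the replicate numbers 1, 2 and 4 and the vector libraries 1, 2 and 3. They do not say whether replicates were separate cultures or whether a cell pool or a single clone was used, so the p-values measure the spread between these libraries, which may be technical.

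Glycolysis turns glucose into pyruvate and, through lactate dehydrogenase, into lactate. HIF1A and EPAS1 are the oxygen-regulated subunits of the hypoxia-inducible factors, which bind an ACGTG or GCGTG core and raise the transcription of many glycolytic genes, of VEGFA and of their own brake EGLN3. The prolyl hydroxylases EGLN1 and EGLN3 mark both subunits for destruction when oxygen is present, and much of that control acts on the protein, which RNA levels do not show.

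In the libraries labelled KDM4B, hypoxia pathway genes moved in both directions, and several glycolytic enzymes were higher. As deposited, VEGFA RNA was at 0.325 of the vector mean and ANKRD37 at 0.335, while EGLN3 was 3.45-fold higher and EPAS1 1.99-fold higher. PKM, PGAM1, LDHA, ENO1 and ALDOA were 1.21-fold to 1.33-fold higher. GAPDH, the most abundant of the 32 RNAs, differed by less than its spread as deposited and was 1.15-fold higher after scaling.

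The targeted gene itself had values of 26.33, 27.17 and 25.76 FPKM (fragments normalized to transcript length and library total) under the KDM4B label, and of 24.73, 25.15 and 25.28 FPKM in vector. The groups did not overlap, but the log2 fold change was 0.073 ± 0.039 (SE; adjusted p = 0.113, limma) as deposited and 0.31 (adjusted p = 1.93e-05, limma) after the scaling described next. The mean was thus 1.05-fold the vector mean as deposited and 1.25-fold after scaling, where 34.1% of all tested genes were called higher. A Flag-tagged copy cannot be told apart from the cell's own KDM4B in a gene-level value. The titles of the overexpressing libraries also carry a suffix, D6092, that the vector titles lack, and what it stands for cannot be told apart from the group.

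The scale of the libraries bears on every small change below. Ribosomal RNA genes took 8.14% to 10.5% of the summed FPKM in the libraries labelled KDM4B and 0.144% to 0.473% in vector, and over the 12148 genes tested the log2 fold change had a median of −0.22. Each result is therefore given as deposited and after dividing each library by its median ratio to the geometric mean over libraries, which brought that median to −0.00048. RN7SK, another noncoding RNA, also differed, at 166.08, 115.48 and 164.36 FPKM under the KDM4B label against 15.8, 3.96 and 2.81 FPKM in vector. Neither difference can be told apart from the group. The part of the ribosomal RNA or of RN7SK in the results was not tested. The LNCaP identity was checked on 10 luminal markers, all of which had a row and passed the level filter. Their summed level was 1735 to 1804 FPKM under the KDM4B label, against 4324 to 4508 FPKM in vector. On each scale, 3 were called higher and 7 lower. Of all tested genes, 13.4% were called higher and 60.3% lower as deposited, and 34.1% higher and 33.9% lower after scaling. Of 16 markers of immune, endothelial, fibroblast, basal and red cells, 11 had a row, with a summed level of 15.9 to 20.3 FPKM against 9.37 to 10.6 FPKM. Of these 11, 3 passed the level filter, with 2 called higher and 0 lower as deposited. After scaling all 3 were higher, with log2 fold changes from 0.36 to 1.55. ACTA2, at 10.6 against 3.53 FPKM, made up most of the summed level in the libraries labelled KDM4B but not in vector. Markers other than ACTA2 also passed the filter and were higher after scaling. COL1A2 and the immune markers PTPRC and CD3E stayed at or near 0, and the remaining markers are not given singly. The part of either marker list in the results was not tested. In such bulk RNA, fewer cells of a kind and less RNA per cell cannot be told apart.

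Of the 32 genes, 30 reached a mean of 1 FPKM and were tested with limma on log2(FPKM + 1), adjusted by Benjamini-Hochberg over all tested genes. The log2 fold changes understate the change of low genes because of the added 1. As deposited, 8 of the 30 were higher and 10 lower at adjusted p below 0.05, where 13.4% of all tested genes were called higher and 60.3% lower. After scaling, 18 were higher and 6 lower, where 34.1% of all genes were called higher and 33.9% lower. The median log2 fold change of the 30 was −0.036 as deposited and 0.21 after scaling. The 8 genes higher as deposited were also higher after scaling, and 6 of the 10 lower ones were also lower. SLC2A1, HK2, BNIP3L and P4HA1 were lower only as deposited, and 10 genes were higher only after scaling. PFKFB4 and BHLHE40 passed on neither scale. The remaining members, CA9, which encodes a carbonic anhydrase, and ADM, which encodes adrenomedullin, were listed at no more than 0.03 and 0.29 FPKM in any library and were not tested.

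**Figure D1:**
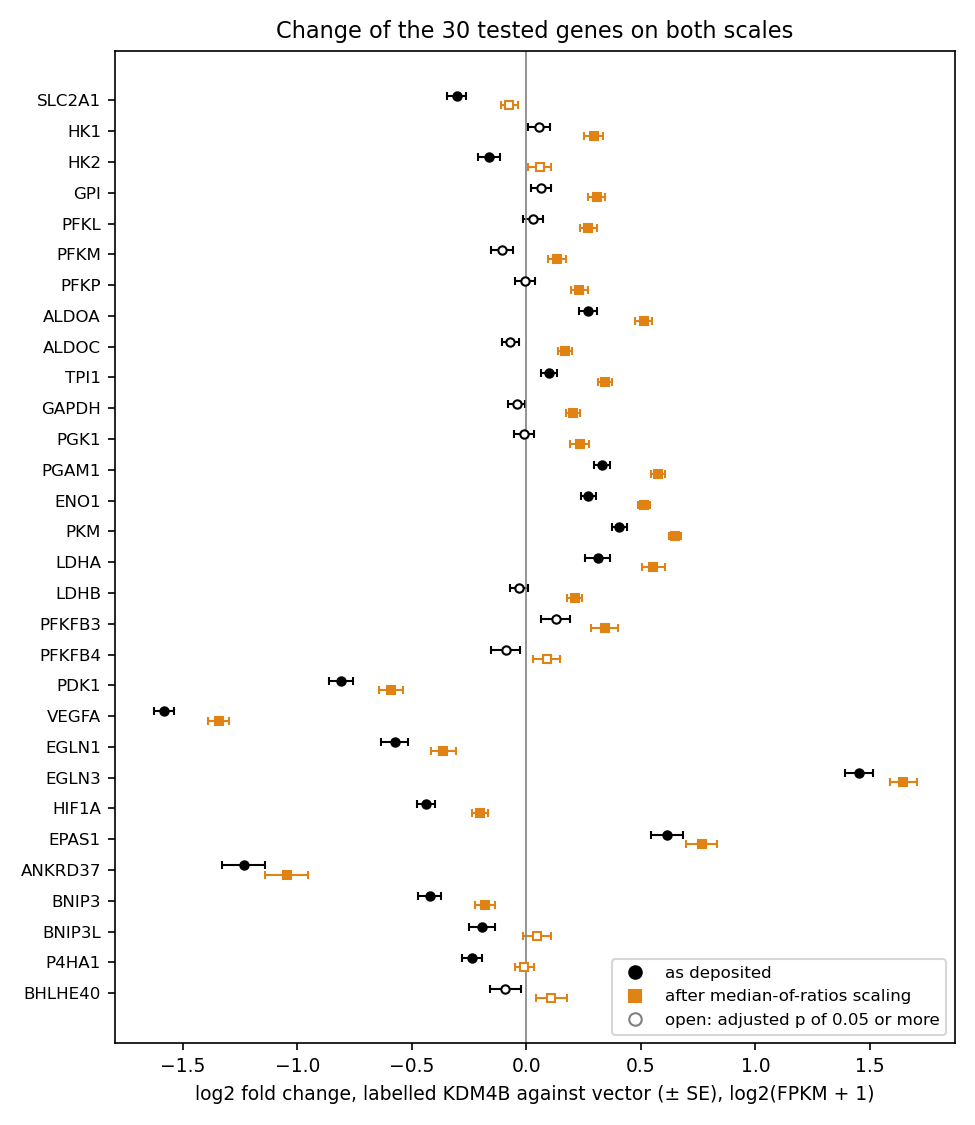
Log2 fold change of the 30 tested genes (labelled KDM4B against vector, x axis, with the SE from limma) in the order glucose entry, enzymes, control enzymes and hypoxia genes (y axis). Black circles are values as deposited, orange squares are values after scaling and open symbols missed adjusted p of 0.05. VEGFA and ANKRD37 lie farthest to the left and EGLN3 farthest to the right on both scales, and scaling moves every gene to the right.

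Among the HIF subunits, HIF1A was lower and EPAS1 higher in the libraries labelled KDM4B. HIF1A measured 19.64, 20.16 and 20.26 FPKM against 27.17, 27.12 and 28.05 FPKM in vector, with no overlap between the groups. Its log2 fold change was −0.44 ± 0.039 (adjusted p = 1.41e-06, limma) as deposited and −0.20 (adjusted p = 0.000517, limma) after scaling. EPAS1, which encodes HIF-2 alpha, measured 2.29, 2.24 and 2.31 FPKM against 1.06, 1.26 and 1.11 FPKM, and again every library labelled KDM4B lay on one side of every vector library. Its log2 fold change was 0.61 ± 0.071 (adjusted p = 1.02e-05, limma) as deposited and 0.76 (adjusted p = 3.95e-06, limma) after scaling. HIF1A stayed the more abundant of the pair in every library. Its share of the summed FPKM of both genes, which does not depend on the scale of a library, was 89.8% ± 0.221 (SD, n = 3) against 96.0% ± 0.381 (SD, n = 3; exact permutation p = 0.1, the smallest that 3 against 3 can give).

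The hydroxylases EGLN1 and EGLN3 exchanged places. EGLN1, the main oxygen sensor of this family in most cells, measured 5.03, 5.53 and 5.42 FPKM under the KDM4B label, against 9.02, 7.86 and 8.40 FPKM in vector. All vector libraries were higher, and the log2 fold change was −0.57 ± 0.059 (adjusted p = 4.20e-06, limma) as deposited and −0.36 (adjusted p = 0.000223, limma) after scaling. EGLN3, a hydroxylase that hypoxia itself induces, measured 8.29, 8.45 and 8.17 FPKM against 2.35, 2.65 and 2.22 FPKM. The groups lay far apart in relation to their spread, with a log2 fold change of 1.45 ± 0.060 (adjusted p = 2.62e-09, limma) as deposited and 1.65 (adjusted p = 5.25e-09, limma) after scaling. EGLN1 accounted for 37.8%, 39.6% and 39.9% of the FPKM of the pair in the libraries labelled KDM4B and for 79.3%, 74.8% and 79.1% in vector. EGLN3 was thus the more abundant of the pair in every library labelled KDM4B and the less abundant one in every vector library (exact permutation p = 0.1 for the share).

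The promoters of these genes are shown because members of one pathway moved in opposite directions. Each run is the 250 bases before the RefSeq transcription start on GRCh38.p14, 5′ to 3′ on the gene's strand. Capitals mark ACGTG or GCGTG, the core letters of a hypoxia response element, read on either strand. CACGTG, an E-box, contains ACGTG on both strands and counts as 2 matches of it.
ANKRD37 (chr4:185396591-185396840, plus strand): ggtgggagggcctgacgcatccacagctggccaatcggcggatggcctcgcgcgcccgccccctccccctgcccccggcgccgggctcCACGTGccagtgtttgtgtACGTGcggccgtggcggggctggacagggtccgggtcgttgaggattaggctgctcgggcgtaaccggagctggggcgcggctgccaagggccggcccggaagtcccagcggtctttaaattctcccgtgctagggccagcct
EGLN1 (chr1:231422288-231422537, minus strand): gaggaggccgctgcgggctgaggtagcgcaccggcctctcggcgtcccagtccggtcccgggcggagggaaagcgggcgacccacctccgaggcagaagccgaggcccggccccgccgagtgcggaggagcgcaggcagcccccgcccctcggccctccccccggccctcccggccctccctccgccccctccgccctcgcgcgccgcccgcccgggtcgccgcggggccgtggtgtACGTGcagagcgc
EPAS1 (chr2:46297157-46297406, plus strand): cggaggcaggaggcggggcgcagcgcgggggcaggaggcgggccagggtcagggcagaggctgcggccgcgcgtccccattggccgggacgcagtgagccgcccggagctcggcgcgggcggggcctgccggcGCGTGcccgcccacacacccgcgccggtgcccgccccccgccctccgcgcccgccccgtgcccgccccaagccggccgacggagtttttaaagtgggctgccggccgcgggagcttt
EGLN3 (chr14:33951075-33951324, minus strand): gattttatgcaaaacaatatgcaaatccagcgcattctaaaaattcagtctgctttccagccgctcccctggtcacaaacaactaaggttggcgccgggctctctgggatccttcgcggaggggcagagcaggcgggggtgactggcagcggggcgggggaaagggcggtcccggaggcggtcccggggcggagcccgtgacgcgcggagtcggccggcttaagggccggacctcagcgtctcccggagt
ANKRD37 held 3 matches of ACGTG, including 1 CACGTG, EGLN1 held 1 ACGTG, EPAS1 held 1 GCGTG, and EGLN3 held neither in this window. The genes with matches include ones that were lower (ANKRD37, EGLN1) and one that was higher (EPAS1).

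Of the genes grouped here as hypoxia-induced, which leaves EGLN3 with the hydroxylases, VEGFA, ANKRD37 and BNIP3 were lower on both scales. VEGFA, which encodes the main growth factor for blood vessels, measured 24.40, 24.28 and 24.88 FPKM under the KDM4B label, against 80.48, 73.71 and 72.20 FPKM in vector. The lowest vector library lay well above the highest of the others, and the log2 fold change was −1.58 ± 0.045 (adjusted p = 1.58e-10, limma) as deposited and −1.34 (adjusted p = 4.17e-09, limma) after scaling. ANKRD37, an ankyrin repeat gene widely used as a hypoxia marker, measured 2.36, 2.28 and 1.57 FPKM against 6.25, 6.33 and 5.94 FPKM. Library 4 was the lowest of the libraries labelled KDM4B, yet the groups did not overlap, and the log2 fold change was −1.23 ± 0.092 (adjusted p = 3.05e-07, limma) as deposited and −1.05 (adjusted p = 4.60e-06, limma) after scaling. BNIP3, a mitophagy receptor, averaged 69.6 ± 3.33 (SD, n = 3) against 93.7 ± 5.04 FPKM (SD, n = 3) and was lower on both scales, with log2 fold changes of −0.42 (adjusted p = 9.66e-06, limma) and −0.18 (adjusted p = 0.00388, limma). Its relative BNIP3L averaged 31.3 ± 2.52 against 35.8 ± 1.42 FPKM (SD, n = 3 each). P4HA1, a collagen prolyl hydroxylase subunit, averaged 12.95 ± 0.254 against 15.4 ± 0.624 FPKM (SD, n = 3 each). Both were lower as deposited (log2 fold change −0.19 and −0.24), but after scaling their values were 0.045 (adjusted p = 0.533, limma) and −0.0089 (adjusted p = 0.861, limma). BHLHE40, a transcriptional repressor, averaged 4.42 against 4.78 FPKM with overlapping groups, and its log2 fold change was −0.091 as deposited and 0.11 after scaling. Of the 6 hypoxia-induced genes tested, 5 were lower and 0 higher as deposited, where 60.3% of all tested genes were lower, and 3 were lower and 0 higher after scaling, where 33.9% were lower. With 6 genes, these counts are not read as particular to the group.

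**Figure D2:**
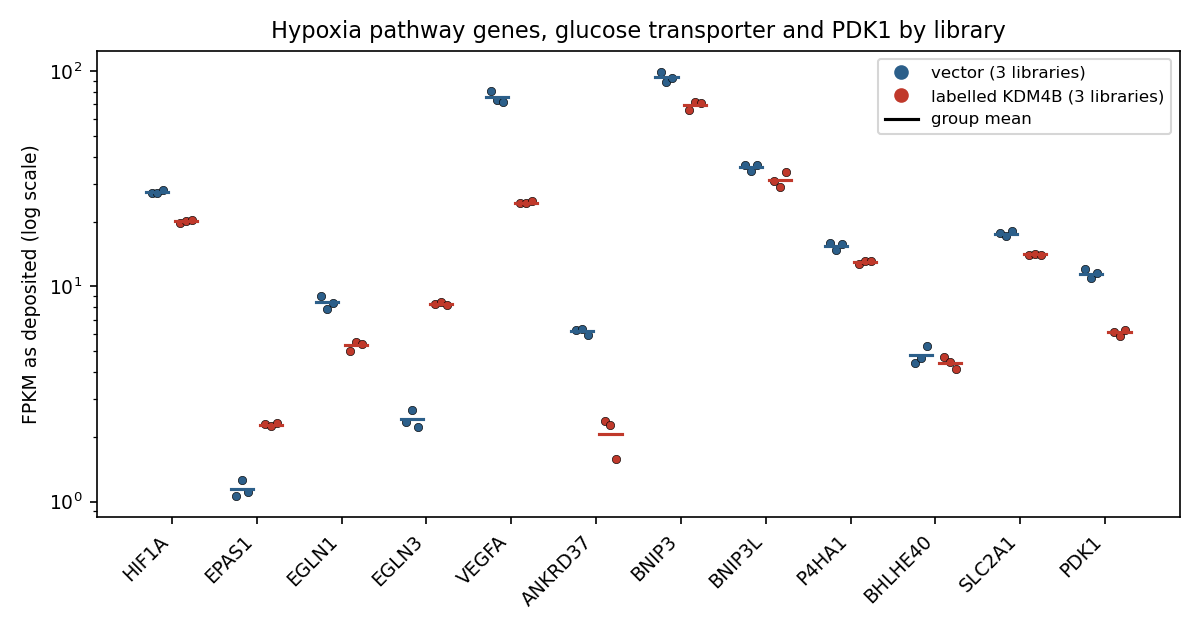
FPKM as deposited (y axis, log scale) of the hypoxia pathway genes, the glucose transporter SLC2A1 and PDK1 (x axis), with 1 point per library and a line at the mean of each group of 3. The vector points of VEGFA lie between 72.20 and 80.48 and the points labelled KDM4B between 24.28 and 24.88, while EGLN3 and EPAS1 show the opposite order.

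Glucose entry and the control enzymes also divided. SLC2A1, the GLUT1 glucose transporter, averaged 14.1 ± 0.121 against 17.6 ± 0.462 FPKM (SD, n = 3 each), with a log2 fold change of −0.30 (adjusted p = 4.31e-05, limma) as deposited and −0.074 (adjusted p = 0.113, limma) after scaling. PDK1, the kinase that inactivates pyruvate dehydrogenase and so keeps pyruvate out of the mitochondrial cycle, measured 6.15, 5.91 and 6.28 FPKM against 12.00, 10.89 and 11.51 FPKM. Its groups did not overlap, and its log2 fold change was −0.81 ± 0.051 (adjusted p = 7.23e-08, limma) as deposited and −0.59 (adjusted p = 3.71e-06, limma) after scaling. PFKFB3 and PFKFB4 make and remove fructose 2,6-bisphosphate, the activator of phosphofructokinase. PFKFB3 ranged from 6.90 to 7.90 FPKM against 6.34 to 7.23 FPKM, an overlap, and passed only after scaling, with a log2 fold change of 0.34 (adjusted p = 0.000516, limma). PFKFB4 averaged 2.63 against 2.87 FPKM and passed on neither scale.

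The 16 enzymes that catalyse glycolysis and the lactate step ranged in vector from HK2, at a mean of 10.2 FPKM, to GAPDH, at 1993 FPKM, and their changes were unequal along the pathway. As deposited, 6 were higher, 1 was lower and 9 did not pass, where 13.4% of all tested genes were called higher and 60.3% lower. After scaling, 15 were higher and 0 lower, where 34.1% of all tested genes were called higher and 33.9% lower. Their summed FPKM was 5599, 5925 and 5622 in the libraries labelled KDM4B and 5454, 5254 and 5147 in vector. As a share of the FPKM outside ribosomal RNA this was 1.41%, 1.43% and 1.39% against 1.14%, 1.10% and 1.09%, so that every library labelled KDM4B exceeded every vector library.

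The enzymes of the first steps had log2 fold changes between −0.16 and 0.064 as deposited. Hexokinase, which traps glucose in the cell, is encoded here by HK1, at 39.76 to 44.86 against 39.20 to 41.51 FPKM, and HK2, at 8.73 to 9.48 against 10.01 to 10.39 FPKM. HK2 was the enzyme gene called lower as deposited, with a log2 fold change of −0.16 (adjusted p = 0.00923, limma), and its value after scaling was 0.057 (adjusted p = 0.331, limma). GPI, which converts glucose 6-phosphate to fructose 6-phosphate, averaged 136 against 130.0 FPKM, and its libraries overlapped. The phosphofructokinase subunits PFKL, PFKM and PFKP averaged 76.7, 57.7 and 31.7 FPKM against 75.0, 62.2 and 31.8 FPKM, and each pair of groups overlapped. After scaling, HK1, GPI, PFKL, PFKM and PFKP passed as higher, with log2 fold changes from 0.13 to 0.31. The call of PFKM was lost without vector replicate 3 (adjusted p = 0.0614, limma).

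From the aldolase step on, ALDOA, PGAM1, ENO1, PKM and LDHA were higher on both scales, with log2 fold changes over 0.5 after scaling. ALDOA, which splits the 6-carbon sugar, measured 647.67, 665.17 and 603.57 FPKM against 546.22, 525.02 and 519.07 FPKM. The groups did not overlap, and the log2 fold change was 0.27 ± 0.040 (adjusted p = 8.59e-05, limma) as deposited and 0.51 (adjusted p = 7.36e-07, limma) after scaling. Its relative ALDOC averaged 45.7 ± 1.27 against 48.0 ± 0.651 FPKM (SD, n = 3 each) and passed only after scaling, at 0.17. TPI1, which interconverts the triose phosphates, averaged 561 ± 14.3 against 524 ± 19.6 FPKM (SD, n = 3 each). Its log2 fold change was 0.10 (adjusted p = 0.0279, limma) as deposited and 0.34 (adjusted p = 4.95e-06, limma) after scaling. The deposited call of TPI1 was lost without KDM4B replicate 2 or 4 or without vector replicate 2 or 3, where the adjusted p reached 0.115 (limma). GAPDH, the dehydrogenase of the middle step, averaged 1937 ± 72.1 against 1993 ± 71.8 FPKM (SD, n = 3 each), and PGK1, the first enzyme that yields ATP, 179 ± 5.30 against 181 ± 10.6 FPKM. Both overlapped between groups as deposited, and both were higher after scaling, with log2 fold changes of 0.20 and 0.23.

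PGAM1, which moves the phosphate within phosphoglycerate, measured 284.18, 297.15 and 289.44 FPKM against 239.28, 226.24 and 226.30 FPKM. Its lowest library labelled KDM4B exceeded the highest vector library, and the log2 fold change was 0.33 ± 0.035 (adjusted p = 5.95e-06, limma) as deposited and 0.57 (adjusted p = 9.48e-08, limma) after scaling. Its near-identical copy PGAM4 averaged 0.060 against 0.050 FPKM. ENO1, enolase, measured 738.19, 769.22 and 724.30 FPKM against 629.02, 606.10 and 614.72 FPKM. All 3 values labelled KDM4B were higher, with a log2 fold change of 0.27 ± 0.033 (adjusted p = 1.83e-05, limma) as deposited and 0.51 (adjusted p = 9.53e-08, limma) after scaling.

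PKM, the pyruvate kinase that makes pyruvate and ATP, had the highest fold change of the 16 enzymes on both scales. It measured 477.89, 496.80 and 481.66 FPKM against 371.94, 367.01 and 359.74 FPKM. The lowest library labelled KDM4B lay above the highest vector library, and the log2 fold change was 0.41 ± 0.032 (adjusted p = 4.35e-07, limma) as deposited and 0.65 (adjusted p = 1.37e-08, limma) after scaling.

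The lactate dehydrogenase genes differed from each other. LDHA, whose subunit favours making lactate, measured 207.36, 220.10 and 197.93 FPKM against 180.58, 157.27 and 166.00 FPKM. Every library labelled KDM4B was above every vector library, and the log2 fold change was 0.31 ± 0.053 (adjusted p = 0.000237, limma) as deposited and 0.55 (adjusted p = 4.13e-06, limma) after scaling. LDHB, whose subunit favours using lactate, averaged 272 ± 13.8 against 278 ± 7.89 FPKM (SD, n = 3 each), with a log2 fold change of −0.032 as deposited and 0.21 after scaling. Several of these abundant genes have processed pseudogenes, and the sources used here do not say how reads matching several copies were counted, so their levels carry that uncertainty.

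**Figure D3:**
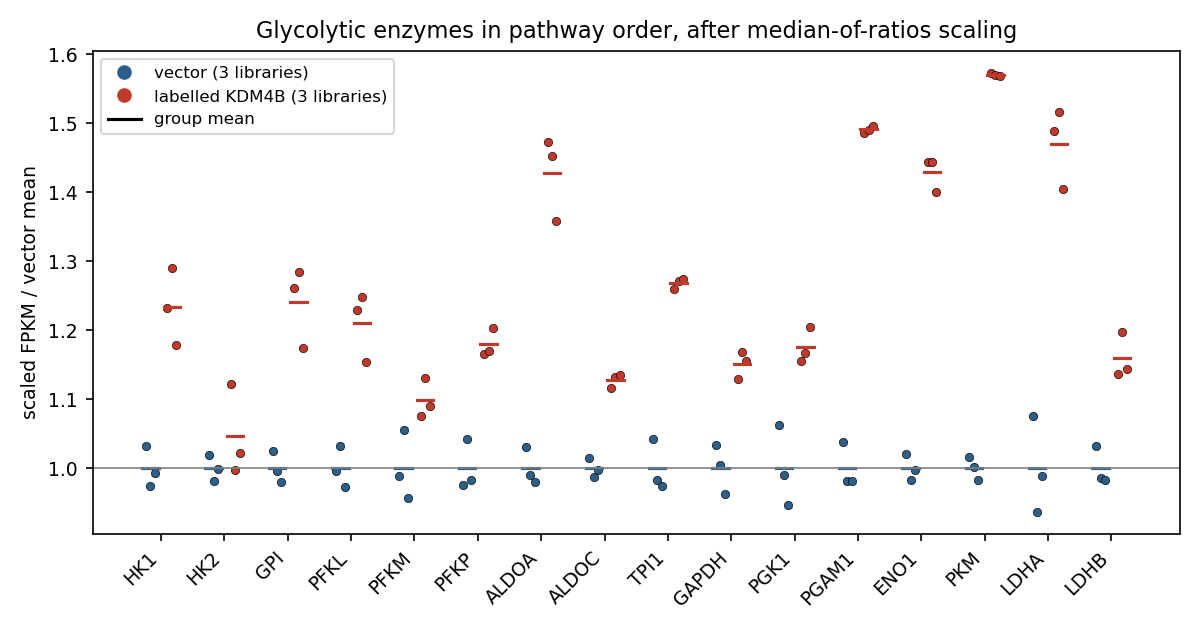
Scaled FPKM of the 16 enzymes divided by the vector mean of the gene (y axis), in pathway order (x axis), with 1 point per library and a line at each group mean. The means labelled KDM4B run from 1.05 for HK2 to 1.57 for PKM, and PKM, PGAM1, LDHA, ENO1 and ALDOA lie above 1.4.

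The LDHA and PKM promoters are shown, under the same conventions, as those of the lactate-forming enzyme and of the enzyme with the highest fold change. LDHA has 2 RefSeq starts, and the first is printed.
LDHA (chr11:18394313-18394562, plus strand): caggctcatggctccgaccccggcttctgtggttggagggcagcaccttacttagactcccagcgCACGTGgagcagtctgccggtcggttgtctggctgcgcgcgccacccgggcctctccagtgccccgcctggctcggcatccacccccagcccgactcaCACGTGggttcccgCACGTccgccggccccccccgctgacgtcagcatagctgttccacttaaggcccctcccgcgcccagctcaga
PKM (chr15:72231191-72231440, minus strand): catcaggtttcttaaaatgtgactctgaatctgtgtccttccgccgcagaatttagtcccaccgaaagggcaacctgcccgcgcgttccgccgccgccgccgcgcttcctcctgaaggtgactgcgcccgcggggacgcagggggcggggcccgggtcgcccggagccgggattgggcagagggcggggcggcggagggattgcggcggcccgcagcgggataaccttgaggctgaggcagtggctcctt
The printed LDHA window held 5 matches of ACGTG, among them 2 CACGTG, and the PKM window held neither core. The window of the second LDHA start held 0 ACGTG and 1 GCGTG. RefSeq promoter entries matched 30 of the 32 genes, with 53 starts. VEGFA and BNIP3L had no entry, so their promoters are neither shown nor counted. Over windows of the 250 bases before each start, ACGTG occurred on either strand in 39.6% of the 53 windows. It occurred in 18.5% of all 35116 promoters and in 20.2% of the 22199 promoters of protein-coding genes. GCGTG occurred in 30.2% of the 53 windows, in 32.2% of all and in 38.3% of protein-coding promoters. CACGTG occurred in 17%, 6.34% and 7.37%, in the same order. Windows of 1 gene overlap or share sequence, several of the 32 genes are textbook HIF targets, and the shares describe letters, not binding.

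Shares within enzyme families gave a comparison that the scale of a library does not touch. Over the 10 shares computed, the exact permutation p was 0.1 or more (0.125 or more after Benjamini-Hochberg adjustment), and none could pass, since 3 against 3 allows no lower p. Shares of other gene families were not computed, so nothing particular to these families is read from them. LDHA made up 44.2%, 43.4% and 42.6% of the LDHA and LDHB total in the libraries labelled KDM4B and 38.6%, 36.5% and 37.8% in vector. ALDOA took 93.3% ± 0.320 against 91.7% ± 0.133 of the aldolases and HK1 82.3% ± 1.21 against 79.8% ± 0.176 of the hexokinases (SD, n = 3 each). Among phosphofructokinase subunits, PFKM took 34.8% ± 0.589 against 36.8% ± 0.461 and PFKL 46.1% ± 1.10 against 44.4% ± 0.413, and PFKP overlapped at 19.1% against 18.8% (exact permutation p = 0.7). BNIP3 took 69.0% ± 2.02 against 72.3% ± 0.564 of the BNIP3 and BNIP3L total. PFKFB3 overlapped at 74.0% ± 2.22 against 70.2% ± 1.69 of its pair (exact permutation p = 0.2). The EGLN1 share, which dropped by 38.7 percentage points, moved most of the 10.

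**Figure D4:**
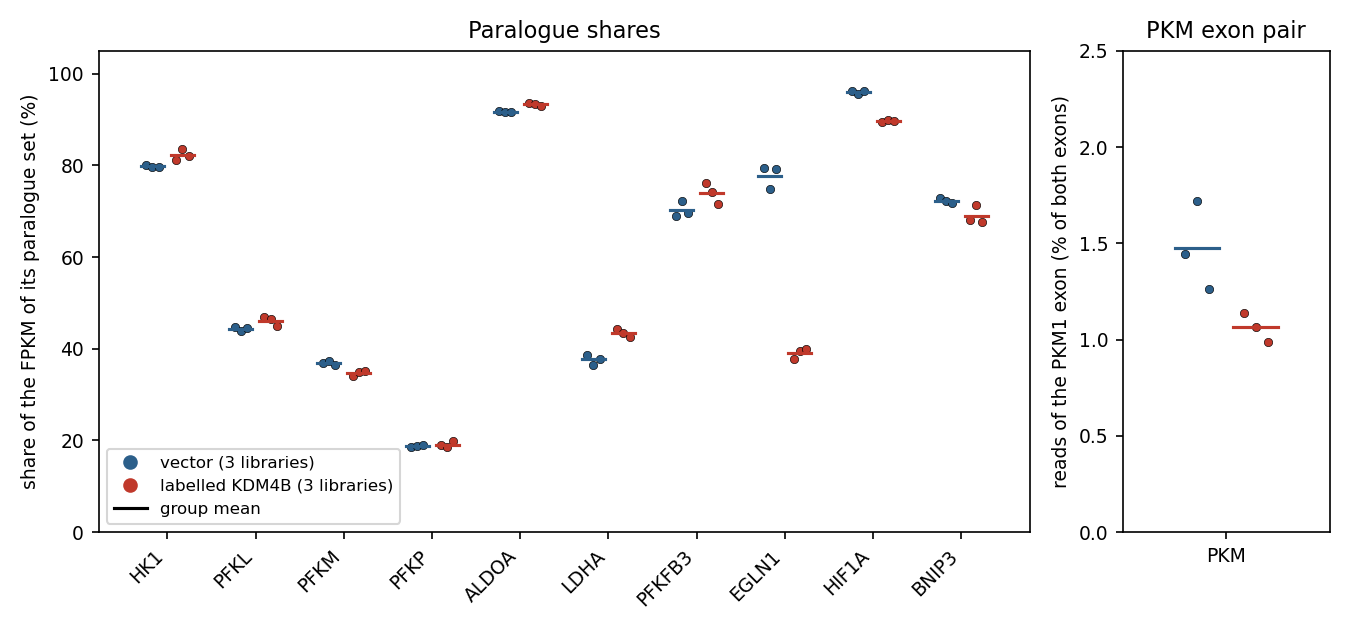
Left, share of the named gene in the FPKM of its paralogue set (y axis, percent) for 10 shares, with 1 point per library and a line at each group mean. Right, reads of the PKM1 exon as a percentage of the reads of both exclusive exons (y axis); EGLN1 lies at 74.8% or more in vector and at 39.9% or less in the other group, and the PKM1 exon stays under 2% in every library.

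Read counts of exon events gave a second readout of the same libraries. For each gene with skipped exon events, the most-read one was tested with edgeR if every library had at least 10 reads. This left 8550 genes. The libraries were first scaled by TMM factors (a trimmed mean of log ratios between libraries), so this readout has no version without scaling. Of the 8550 genes, 22.8% were called higher and 22.9% lower. Of 23 members with such an event, 22 were tested, of which 11 were higher and 5 lower. The member left out was ALDOA, whose most-read event had 15, 9 and 8 reads against 32, 50 and 41. That order is opposite to the order of its FPKM, and these few reads were not tested. VEGFA had 189, 170 and 202 reads against 645, 541 and 541 (log2 fold change −1.40, adjusted p = 5.53e-16, edgeR). EGLN3 had 112, 120 and 88 reads against 30, 30 and 34 (log2 fold change 1.98, adjusted p = 1.28e-10, edgeR), and PKM 6693, 7047 and 6826 against 5183, 4857 and 4933 (log2 fold change 0.67, adjusted p = 1.11e-18, edgeR). The other 4 genes called lower were PDK1, EGLN1, HIF1A and ANKRD37, each also lower by FPKM on both scales.

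The splice event tables asked a further question, whether the forms of these genes changed. The tables held 99 skipped exon and 26 exclusive exon events in members, and both forms could be separated, with enough reads, for 11 events of 7 genes. None of the 11 passed adjusted p of 0.05 in edgeR, and none did in DESeq2, while 4 had an unadjusted p below 0.05 in edgeR, the PKM pair and 3 overlapping events on VEGFA exon 6a. Over all events tested with edgeR, 5.5% of skipped exon events and 1.63% of exclusive exon events were called.

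PKM carries a pair of exclusive exons that set the pyruvate kinase isoform: PKM2, the form of growing and tumour cells, and PKM1, the form of muscle and brain. The event positions are those of the files (PKM2 exon chr15:72494795-72494961, PKM1 exon chr15:72495363-72495529). None of the 11 tested events lies inside its gene on GRCh38, so the build of these positions is uncertain. The PKM2 exon had 6691, 7047 and 6826 reads in the libraries labelled KDM4B and 5183, 4857 and 4932 in vector, and the PKM1 exon 77, 76 and 68 against 76, 85 and 63 reads. The PKM1 counts overlapped between the groups and the PKM2 counts did not, and the PKM1 exon took 1.14%, 1.07% and 0.986% of the reads against 1.45%, 1.72% and 1.26%. The shares did not overlap, but the log2 odds ratio of 0.48 in favour of the PKM2 exon missed the threshold (unadjusted p = 0.000994, adjusted p = 0.0582, edgeR). Without vector replicate 3 it passed (adjusted p = 0.0424, edgeR), and without vector replicate 2 the adjusted p was 0.420 (edgeR).

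VEGFA exons 6a and 7 encode the heparin-binding part that keeps the growth factor at the cell surface and matrix. The tested exon with the most reads (chr6:43749693-43749824 in the files' coordinates, exon 7) had 171, 142 and 169 inclusion reads and 18, 28 and 33 skipping reads in the libraries labelled KDM4B. Vector had 581, 477 and 492 inclusion reads and 64, 64 and 49 skipping reads. Inclusion reads were 85.9% ± 3.97 of the total against 89.7% ± 1.42 (SD, n = 3 each), and the difference did not pass (log2 odds ratio −0.52, adjusted p = 0.524, edgeR). Exon 6a (chr6:43748469-43748540) had 0 reads in each library labelled KDM4B and 3, 5 and 3 in vector, too few to compare (adjusted p = 0.134, edgeR). No event of HIF1A or LDHA could be tested for its forms.

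Genes of the same pathways outside the 32 moved in both directions. Of 50 other glycolysis genes, 47 had a row and 27 were tested. As deposited, 8 were higher and 14 lower, where 13.4% of all tested genes were called higher and 60.3% lower. After scaling, 12 were higher and 11 lower, where 34.1% of all tested genes were called higher and 33.9% lower. The median log2 fold change of the 27 was −0.18 as deposited and 0.029 after scaling. The 6 with the lowest p as deposited, a scale on which 60.3% of all genes were lower, were lower on both scales. SLC16A1, the lactate and pyruvate carrier MCT1, averaged 25.9 ± 0.310 against 53.7 ± 1.51 FPKM, and PFKFB2, a relative of PFKFB3, 6.65 ± 0.575 against 18.4 ± 0.994 FPKM (SD, n = 3 each). PYGB, glycogen phosphorylase, averaged 51.5 against 85.3 FPKM, PGM1, phosphoglucomutase, 13.5 against 26.8 FPKM, ADPGK, an ADP-dependent glucokinase, 23.8 against 36.5 FPKM, and G6PC3, a glucose 6-phosphatase, 35.1 against 48.9 FPKM. Ranked by p after scaling, PDK3, a relative of PDK1, and GYS1, glycogen synthase, came ahead of ADPGK and G6PC3. Both were named after their values were seen and were higher on both scales, PDK3 at 9.36 ± 0.910 against 5.74 ± 0.106 FPKM and GYS1 at 21.4 ± 1.06 against 16.5 ± 0.456 FPKM (SD, n = 3 each).

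Of 52 other HIF pathway and hypoxia-induced genes, 39 were tested. As deposited, 7 were higher and 20 lower, where 13.4% of all tested genes were called higher and 60.3% lower. After scaling, 16 were higher and 13 lower, where 34.1% of all tested genes were called higher and 33.9% lower. The median log2 fold change of the 39 was −0.17 as deposited and 0.046 after scaling. The counts of neither list are read as particular to it. Of the 6 with the lowest p as deposited, 4 were lower on both scales. NDRG1, a stress-induced gene that androgen also raises, averaged 68.3 ± 1.51 against 143 ± 5.12 FPKM, and STC2, stanniocalcin 2, 19.4 ± 0.612 against 51.1 ± 4.11 FPKM (SD, n = 3 each). NDUFA4L2, a mitochondrial protein induced by HIF, averaged 1.44 ± 0.218 against 7.17 ± 1.04 FPKM, and AK4, an adenylate kinase, 27.4 ± 1.09 against 47.4 ± 1.59 FPKM (SD, n = 3 each). The other two were higher on both scales. CA12, a carbonic anhydrase, averaged 17.5 ± 0.131 against 8.01 ± 0.377 FPKM (SD, n = 3 each). IGFBP3, a binding protein of insulin-like growth factors, measured 19.76, 31.52 and 22.42 FPKM against 2.86, 3.13 and 3.34 FPKM. Its libraries labelled KDM4B varied most, yet the lowest was far above vector. Ranked by p after scaling, INSIG2, a regulator of sterol synthesis named after its values were seen, came ahead of NDUFA4L2 and AK4, and it was higher on both scales, at 10.4 ± 0.490 against 5.74 ± 0.469 FPKM (SD, n = 3 each).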

How the data were processed

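The data are 6 RNA-seq libraries of LNCaP cells, 3 labelled KDM4B and 3 vector. The authors deposited gene-level FPKM and counts of reads per splice event. The submitters' processing notes name HISAT, StringTie, Cufflinks and GRCh38 (hg38) without versions or roles. Depth of the FPKM table is unknown, since no total count stands beside it.

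Genes whose mean reached 1 FPKM were tested with limma 3.58.1 (trend) on log2(FPKM + 1), two-sided, with Benjamini-Hochberg adjustment, as deposited and after median-of-ratios scaling. Deposited event counts joined both forms. Inclusion and skipping reads were recovered from sets of events that share exons (99.98% of 19482 values gave whole reads) and tested with edgeR 4.0.16 (quasi-likelihood), requiring at least 10 reads in each library, with DESeq2 1.42.0 as an alternative. Paralogue shares were tested by exact permutation, two-sided. The limma fit and the edgeR test of forms were tested on simulated data. Promoters came from RefSeq tables of GRCh38.p14, matched by symbol; all 32 genes matched by gene ID.

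The genes and lists were chosen with earlier results of these data known. Values in every library are given for members past adjusted p of 0.05 with an absolute log2 fold change of at least 0.5 on either scale, and for HIF1A, which was added after its values were seen; at most 6 genes per other list are named, those with the lowest p. Scale, pseudocount, filter, trend, replicate block, tool and each library were varied.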

Additional observations from a re-analysis of the deposited data

How the results depend on the processing

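Scaling changed the counts. All-gene calls were 1628 higher and 7323 lower as deposited, 4136 and 4114 after median-of-ratios scaling, and 3995 and 4246 with equal sums outside ribosomal RNA. Members went from 8 higher and 10 lower to 18 and 6 under both. Log2 fold changes that turned positive were, in that order, HK2 0.057 and 0.048, PFKM 0.13 and 0.12, PFKP 0.23 and 0.22, ALDOC 0.17 and 0.16, GAPDH 0.20 and 0.19, PGK1 0.23 and 0.22, LDHB 0.21 and 0.20, PFKFB4 0.088 and 0.080, BNIP3L 0.045 and 0.035, and BHLHE40 0.11 and 0.10. On the most-read exon event (edgeR with TMM factors), PFKM was 0.093, PFKP 0.11, ALDOC 0.080, GAPDH 0.19, PGK1 0.26, LDHB 0.23 and P4HA1 0.059. Leaving out a library gave 1440 to 1587 higher and 6830 to 7454 lower calls, 7 to 9 and 10 to 11 in members (17 to 18 and 6 after scaling, an alternative chosen after seeing the data). It turned PFKL (range −0.0093 to 0.069) to −0.0093 (without KDM4B replicate 2), PFKP (from −0.023) to 0.015 and 0.024 (without KDM4B replicate 1 or vector replicate 2), PGK1 (from −0.048) to 0.015 and 0.035 (without KDM4B replicate 1 or vector replicate 1) and, after scaling, BNIP3L (up to 0.11) to −0.018 (without KDM4B replicate 4) and P4HA1 (from −0.041) to 0.0089 and 0.0059 (without vector replicate 1 or 3). The PFKP share difference ran from −0.12 percentage points without KDM4B replicate 4 to 0.56. Form calls over all events were 74 for skipped and 49 for exclusive exons (20 exclusive exon calls in DESeq2), and 10 to 70 and 33 to 47 without a library. The lowest, 10, 20 and 32 skipped exon calls, came without vector replicates 1, 3 and 2. Member form calls were 0 for skipped and 0 to 1 for exclusive exons, the 1 being PKM without vector replicate 3. The log2 odds of a VEGFA exon near 0 (from −0.29) became 0.22, 0.062 and 0.023 without KDM4B replicate 2, KDM4B replicate 4 or vector replicate 2, and that of an EGLN1 exon pair (from −0.28) 0.021, 0.029 and 0.053 without KDM4B replicate 4, vector replicate 2 or vector replicate 3. The cause of the changes with scale was not tested.

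The replicate numbers are shared by only 2 pairs, whose deviations correlated at −0.0198 and 0.137, where the other pairs lay between −0.154 and 0.104. So few pairs cannot decide whether the numbers pair the libraries, and the main fits did not use them. With the replicate block, calls were 1582 higher and 6877 lower over all genes and 8 and 9 in members, with form calls of 13 and 10. HK2 (adjusted p = 0.053, limma) and TPI1 (0.191) missed the threshold and PFKFB3 (0.0244) passed. BHLHE40 became 0.0078 and, after scaling, BNIP3L −0.0059, and the odds of the VEGFA exon and the EGLN1 pair became 0.063 and 0.14 under the block.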

Other observations

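Some event counts of the members join both forms and entered no comparison. The retained intron event of VEGFA with the most reads had 452, 502 and 545 reads in the libraries labelled KDM4B and 1876, 1771 and 1712 in vector. The alternative 5′ splice site event of PKM with the most reads had 2917, 2953 and 2706 reads against 2059, 1904 and 1960. The HK1 exclusive exon pair, tested among the 11 events, gave 39.1% ± 1.96 against 43.4% ± 1.86 for its first exon (SD, n = 3 each; unadjusted p = 0.082, adjusted p = 0.606, edgeR).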
